A study of Mus musculus with 98 samples.

Results

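The suprachiasmatic nucleus (SCN) is the hypothalamic pacemaker that sets daily rhythms, and 10 genes known for its peptide signalling are described here in SCN and arcuate nucleus (ARC) libraries. They were found by their symbols among the 20415 mouse gene rows of the count table for brain and muscle, where 10 of 10 were present, once each. The peptides are Vip, Avp, Prok2 and Nms, the receptors are Vipr2, Prokr2 and the orphan receptor Gpr176, and the others are the G protein regulator Rgs16, the transcription factor Lhx1 and the vesicle protein Syt10. The rule that picks them uses symbols only, but the 10 genes were chosen with earlier results of these data known.

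RNA was sequenced from male FRGN mice, 10 weeks old, which lack Fah, Rag2 and Il2rg and were crossed to the non-obese diabetic strain. In the Hu arm the liver had been repopulated with human hepatocytes (mice above 70% repopulation were used), and in the Mu arm, the control, with murine hepatocytes. Both arms share the deletions, nitisinone cycling, SMX/TMP antibiotics, dextrose water and a high energy diet, so that neither arm is an unmanipulated mouse. Libraries were made at zeitgeber time (ZT, in h) 2, 6, 10, 14, 18 and 22. For each region there were 10 Hu and 12 Mu libraries, 2 per arm and time except 1 in Hu at ZT 6 and at ZT 22. Labels number the replicates but do not tie numbers to animals, so p-values measure the spread between these libraries.

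In the SCN, Vip cells of the ventral part receive input from the retina and signal through the receptor Vipr2 to the rest of the nucleus, while Avp marks the dorsal shell. Prok2 is a secreted output signal that acts on Prokr2, and Nms is a peptide of a broad set of SCN neurons. Rgs16 shortens G protein signalling and Gpr176 is a receptor coupled to the inhibitory Gz protein. Lhx1 maintains the peptide genes of the nucleus. Avp is also made in large amounts by neurons of the paraventricular and supraoptic nuclei, which lie close by.

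Avp and Prok2 are textbook targets of the clock proteins CLOCK and BMAL1, which bind E-boxes (CACGTG). They were the 2 of 10 genes with an E-box in the promoter window of RefSeq on GRCm38.p6, 250 bases before to 50 after the gene start. The 250 bases before each start are given 5′ to 3′ on the gene's strand, with E-boxes and the variant CACGTT in capitals. They are shown because the daily level of these 2 genes is compared below. For Avp the stretch is chr2:130582589-130582838 on the minus strand, and for Prok2 it is chr6:99726393-99726642 on the minus strand.
Avp: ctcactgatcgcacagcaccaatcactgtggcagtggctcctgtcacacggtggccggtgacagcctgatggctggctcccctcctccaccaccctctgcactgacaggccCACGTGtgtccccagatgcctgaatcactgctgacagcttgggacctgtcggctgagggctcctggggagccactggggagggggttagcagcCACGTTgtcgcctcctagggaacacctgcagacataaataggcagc
Prok2: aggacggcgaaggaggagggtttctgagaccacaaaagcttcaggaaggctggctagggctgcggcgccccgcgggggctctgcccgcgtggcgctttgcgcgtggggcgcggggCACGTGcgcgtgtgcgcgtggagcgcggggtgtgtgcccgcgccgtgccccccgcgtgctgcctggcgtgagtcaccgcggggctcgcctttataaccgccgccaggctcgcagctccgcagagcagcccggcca
In Avp the E-box begins at position -139 from the start and CACGTT at -46, and in Prok2 the E-box begins at -135. Searched on both strands, CACGTG was in 7.15% and CACGTT in 4.68% of 32851 promoter windows of this length. A cAMP response element (TGACGTCA, in 1.79% of windows) and a D-box (TTATGTAA, in 0.938%) were in 0 of the 10 windows. The first 5 letters of the response element (TGACG, in 20.8% of windows) were in 4 of the 10, those of Vip, Lhx1, Syt10 and Gpr176. A match is only a match of letters.

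On GRCm38 (GENCODE M21) Vip lies on chromosome 10 at 5639218-5647617, Avp on chromosome 2 at 130580620-130582554, Prok2 on chromosome 6 at 99711299-99726392 and Nms on chromosome 1 at 38939149-38950276. The receptor genes are Vipr2 on chromosome 12 at 116077726-116146261, Prokr2 on chromosome 2 at 132337733-132385447 and Gpr176 on chromosome 2 at 118277110-118373419. Rgs16 is on chromosome 1 at 153740349-153745468, Lhx1 on chromosome 11 at 84518284-84525535 and Syt10 on chromosome 15 at 89782393-89841860. All are annotated as protein coding, and reads were counted per gene.

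Total counts ranged from 25.5 to 34.9 M (M for mega) in SCN and from 23.7 to 47.1 M in ARC libraries. Levels are given as CPM, a gene's count divided by the library's total of mouse counts in M. The labelled regions were checked on lists of marker genes, summed per library. ARC neuron markers (6 of 7 listed genes were in the table, among them Agrp, Npy and Pomc) summed to 28.7 to 96.5 CPM in SCN and 130 to 274 CPM in ARC libraries. The 2 markers of the ventromedial hypothalamus, Nr5a1 and Fezf1, summed to 1.84 to 5.70 CPM in SCN and 28.3 to 49.1 CPM in ARC, with median Nr5a1 under 0.1 CPM in SCN. The ARC and ventromedial ranges did not overlap between regions. Of 6 factors of SCN development and function, 4 were lower in SCN libraries and 0 higher, where 34.2% of all 15424 genes tested were lower and 37.9% higher. Six6, which is needed for the SCN to form, had the smallest p-value of the 6 factors (edgeR adjusted p = 2.04e-12) at a log2 difference, SCN minus ARC, of -2.99 ± 0.28 (SE). Its range was 0.143 to 7.55 CPM in SCN, median 0.778, against 5.67 to 14.9 CPM in ARC, median 9.07. The markers separate the regions, but most SCN-defining genes measured here were not higher in the libraries labelled SCN. In bulk tissue, fewer cells of a type and less RNA per cell cannot be told apart.

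The libraries of a region differed in ways that arm and time do not explain, and the 10 genes show it. In SCN, Mu ZT 18 replicate 2 was among the 3 highest libraries for 8 of the 10 genes, Hu ZT 14 replicate 1 for 5 and Mu ZT 2 replicate 1 for 4. Mu ZT 18 replicate 2 had the highest Vip (22.9 CPM), Vipr2 (14.3 CPM) and Lhx1 (10.1 CPM), whereas its partner at that time and arm had 6.31, 2.39 and 4.78 CPM. Mu ZT 2 replicate 2 had the lowest Lhx1 (0.393 CPM), Nms (0.250 CPM) and Gpr176 (14.3 CPM), with a Vip of 14.8 CPM. That library, Hu ZT 6 replicate 1, Mu ZT 14 replicate 2 and Mu ZT 10 replicate 1 stood apart on the first principal component of all genes, which holds 26.5% of the variance between SCN libraries. In ARC, Mu ZT 14 replicate 1 and Mu ZT 10 replicate 2 stood apart on the second component, which holds 12.1%. Results are given with these libraries.

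**Figure D1:**
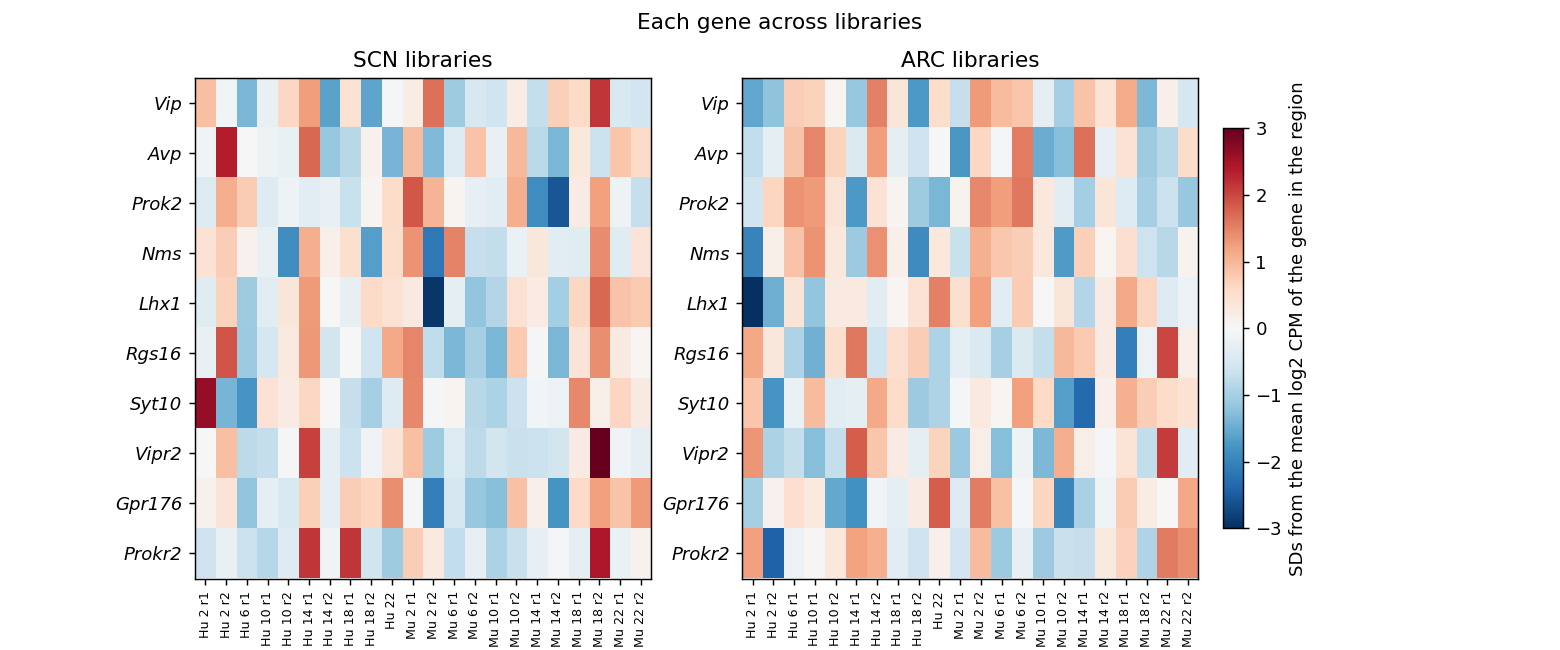
Each gene (rows) in each SCN and ARC library (columns, by arm, zeitgeber time in h and replicate number; the number of the Hu ZT 22 library is left out because column and sample title disagree on it), as SDs from the gene's mean log2 CPM in the region. In SCN the column of Mu ZT 18 replicate 2 is high for most genes, and Mu ZT 2 replicate 2 is low for Lhx1, Nms and Gpr176 and high for Vip.

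The first comparison asks how the levels of the 10 genes differ between the regions. In the 22 SCN against the 22 ARC libraries, 1 gene was higher in SCN (Prok2), 6 were lower (Avp, Lhx1, Rgs16, Syt10, Vipr2 and Prokr2) and 3 did not pass the threshold (Vip, Nms and Gpr176). The test was edgeR's quasi-likelihood F test, with Benjamini-Hochberg adjusted p under 0.05 as the threshold. Of all 15424 genes tested, 37.9% were higher and 34.2% lower in SCN, so a call by itself is common in this comparison. Overlap of libraries between the regions, given below per gene, was not computed over all genes. The median log2 difference of the 10 genes was -1.10, and that of all genes 0.02. Each of the 7 calls was kept without the 8 libraries that stand apart or have most Vipr2, a choice made after seeing the data.

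**Figure D2:**
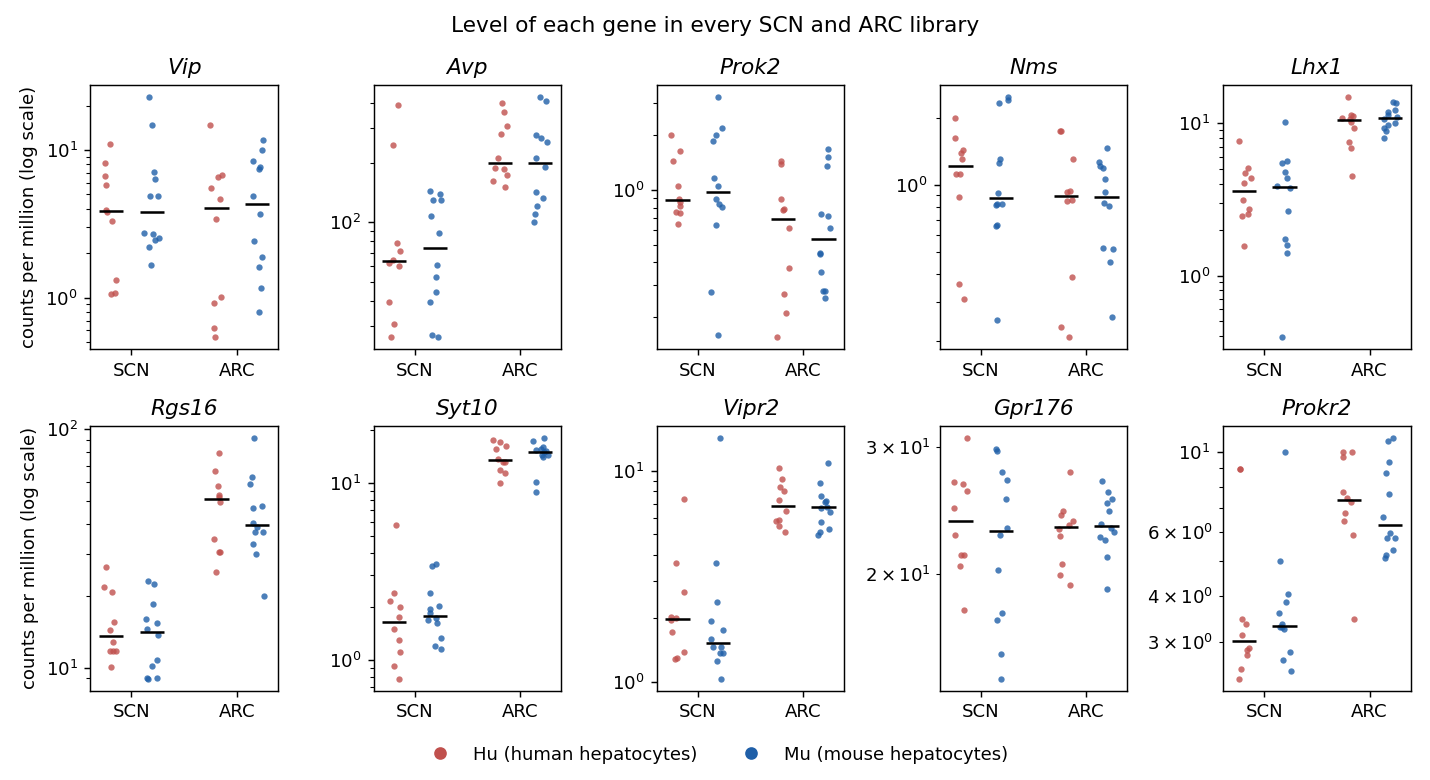
Level in CPM (log axis) of each gene in every library of SCN and ARC; each point is 1 library, red for Hu and blue for Mu, and the bar is the median of the arm. Syt10 shows no overlap between the regions, Gpr176 has near-equal medians of 22.9 and 23.3 CPM, and single SCN libraries of Vip, Vipr2 and Avp lie far above the rest.

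Among the peptides, Avp ranged from 26.2 to 391 CPM in SCN, with a median of 63.5, and from 100.02 to 431 CPM in ARC, with a median of 201. The ranges overlapped, yet 15 of 22 SCN libraries lay below every ARC library. Its log2 difference, SCN minus ARC, was -1.29 ± 0.26 (SE; edgeR adjusted p = 3.48e-05). Markers of paraventricular and supraoptic neurons (Oxt, Crh, Trh, Sim1 and Otp) moved the same way, with 4 of 5 lower in SCN, where 34.2% of all genes were lower. Their summed level was 26.1 to 252 CPM in SCN against 249 to 496 CPM in ARC. Their part in the Avp difference was not tested.

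Prok2 was the only one of the 10 genes to pass the test with a higher level in SCN. It ranged from 0.159 to 3.24 CPM in SCN (median 0.894) and from 0.155 to 1.67 CPM in ARC (median 0.618), and 5 SCN libraries lay above every ARC library. The log2 difference was 0.85 ± 0.23 (SE; edgeR adjusted p = 0.000966). These levels rest on few reads, 5 to 86 counts per library in SCN and 6 to 49 in ARC. Reads of Prok2 could also include those of Gm26748, an antisense gene that overlaps it, because the strand setting of the counting is not given in the sources used here.

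Vip ranged from 1.06 to 22.9 CPM in SCN (median 3.87) and from 0.538 to 14.8 CPM in ARC (median 4.16). The log2 difference was 0.16 ± 0.37 (SE; edgeR adjusted p = 0.701), with an approximate 95% interval, built from the SE, from -0.56 to 0.89. Nms ranged from 0.250 to 2.48 CPM in SCN (median 1.13) and from 0.208 to 1.74 CPM in ARC (median 0.893), a log2 difference of 0.43 ± 0.24 (adjusted p = 0.103; interval -0.04 to 0.91). For both peptides the spread between libraries of a region, 8.37-fold to 27.6-fold from lowest to highest, exceeded the difference between regions.

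Of the receptors, Vipr2 ranged from 1.04 to 14.3 CPM in SCN (median 1.74) and from 4.97 to 10.9 CPM in ARC (median 6.72). In 20 of 22 SCN libraries it was below every ARC library, and in 1, Mu ZT 18 replicate 2, it was above all of them. The log2 difference was -1.49 ± 0.21 (edgeR adjusted p = 6.60e-08). Prokr2 was lower by a smaller amount, -0.91 ± 0.15 (adjusted p = 1.37e-06), with medians of 3.29 CPM in SCN and 7.02 CPM in ARC. Gpr176 had the smallest SE, with a log2 difference of -0.00 ± 0.06 (adjusted p = 0.960) and an interval from -0.12 to 0.11. Its libraries ranged from 14.3 to 30.8 CPM in SCN and from 19.03 to 27.7 CPM in ARC, so that both the highest and the lowest libraries were SCN libraries. Vipr2 and Gpr176 also overlap antisense genes (Gm20658 and 1700054M17Rik). Gpr176 further overlaps Gm29232 on the same strand and the rRNA gene Gm22651 on the opposite strand.

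Syt10 separated the regions fully, though the share of all genes that do so was not computed. It ranged from 0.783 to 5.77 CPM in SCN (median 1.73) and from 8.90 to 17.9 CPM in ARC (median 14.7), and the log2 difference was -2.84 ± 0.15 (SE) with an edgeR adjusted p of 4.48e-19. Rgs16 ranged from 8.98 to 26.5 CPM in SCN (median 14.02) and from 19.9 to 91.3 CPM in ARC (median 43.3), with 17 SCN libraries below every ARC library. The log2 difference of Rgs16, which overlaps the antisense gene Gm28513, was -1.62 ± 0.15 (adjusted p = 4.30e-12). Lhx1 ranged from 0.393 to 10.1 CPM in SCN (median 3.82) and from 4.49 to 14.8 CPM in ARC (median 10.7), at -1.50 ± 0.17 (adjusted p = 5.72e-10). In Syt10 the highest library exceeded the lowest 7.38-fold in SCN and 2.01-fold in ARC, and in Lhx1 25.8-fold and 3.30-fold.

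**Figure D3:**
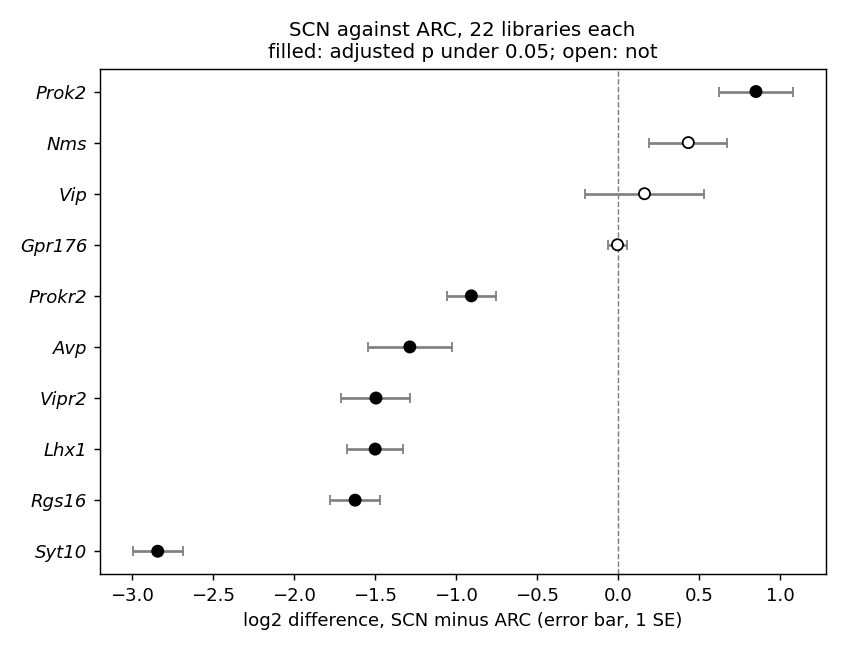
Log2 difference of each gene between the 22 SCN and 22 ARC libraries (x axis, SCN minus ARC; error bars are 1 SE), filled where the adjusted p was under 0.05. Values run from -2.84 for Syt10 to 0.85 for Prok2, and the Vip, Nms and Gpr176 points are open.

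The same comparison on a list of 24 other SCN peptides, receptors and signalling genes gave 20 of 23 tested genes past the threshold, 4 higher and 16 lower in SCN, with a median log2 difference of -0.51. For this and the 2 lists below, the shares over all genes were 37.9% higher and 34.2% lower. The calcium-binding protein genes Calb1 (-1.91 ± 0.09, SE) and Calb2 (-1.27 ± 0.08) and the peptide gene Adcyap1 (-1.97 ± 0.14) were among the lower ones. Genes found in all neurons (Snap25, Syt1, Rbfox3 and Tubb3) were higher in SCN libraries in 4 of 4 cases, by 0.20 to 0.45, and their summed level was 2797 to 4422 CPM in SCN against 2384 to 3039 CPM in ARC. Genes of ependymal cells and tanycytes, which line the third ventricle, were lower in 5 of 5 cases, with Rax at a log2 difference of -4.52 ± 0.23.

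Between genes, levels were compared per kilobase of exon. In SCN, Avp stood alone with a median of 110 CPM per kb and a lowest library of 45.3, above the highest value of any other of the 10 genes, 11.3 for Rgs16. Rgs16 (median 5.99) and Gpr176 (5.88) came next and overlapped, followed by Vip (1.14), Nms (1.12), Syt10 (0.940), Lhx1 (0.939), Prok2 (0.466), Prokr2 (0.416) and Vipr2 (0.389), where each gene's libraries overlapped those of its neighbours in this order. In ARC the order of medians was Avp (348 CPM per kb), Rgs16 (18.5), Syt10 (7.95), Gpr176 (5.97), Lhx1 (2.63), Vipr2 (1.50), Vip (1.22), Nms (0.892), Prokr2 (0.887) and Prok2 (0.322). There the libraries of Gpr176, at 4.88 or above, did not overlap those of Lhx1, at 3.64 or below, and those of Avp, at 173 or above, did not overlap those of Rgs16, at 39.0 or below. The other neighbours overlapped. Syt10 thus stood below Nms in SCN and above Gpr176 in ARC, and Vipr2 stood last in SCN and above Vip in ARC.

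The next question was whether the genes followed a daily rhythm, fitted as a cosine and a sine of 24 h with a common rhythm for both arms. In ARC, 1 of 10 genes passed the threshold (Prok2), where 4.53% of all 15079 genes did. In SCN 0 of 10 passed, where 1.52% of all 15006 genes did, and 4 of 10 had an unadjusted p under 0.05, where 18.8% of all genes did. DESeq2 called 1 of the 10 genes in each region, Gpr176 in SCN, where it called 5.37% of all genes, and Prok2 in ARC, where it called 7.38%. Clock genes were rhythmic in these same libraries: of 16 listed, 9 passed in SCN and 12 in ARC, among them Ciart (edgeR adjusted p = 0.000133 in SCN and 0.000343 in ARC) and Arntl (0.00186 and 0.000563). Of the 24 other SCN signalling genes, 0 of 21 tested passed in SCN and 0 of 23 in ARC by edgeR, with 7 and 1 at an unadjusted p under 0.05, where 18.8% and 19.3% of all genes were.

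Prok2 in ARC was highest at ZT 6, where its 3 libraries had 1.36 and 1.67 CPM in Mu and 1.44 CPM in Hu. At ZT 2 the values were 0.618 and 1.52 CPM in Mu and 0.375 and 0.893 CPM in Hu, and at ZT 10 they were 0.717 and 0.452 CPM in Mu and 1.39 and 0.771 CPM in Hu. At ZT 14 they were 0.278 and 0.740 CPM in Mu and 0.155 and 0.784 CPM in Hu. Each ZT 6 library thus lay above each ZT 14 library. At ZT 18 the values were 0.446 and 0.279 CPM in Mu and 0.617 and 0.269 CPM in Hu, and at ZT 22 they were 0.356 and 0.254 CPM in Mu and 0.210 CPM in Hu. Means fell from 1.49 CPM at ZT 6 to 0.273 CPM at ZT 22. The fitted amplitude, given in log2 units from mean level to peak, was 1.01 ± 0.21 (SE), a peak 4.05-fold above the trough, with the peak at ZT 6.47 ± 0.74 h (edgeR adjusted p = 0.0121). Fitted by arm, the peaks were at ZT 5.57 ± 1.02 in Mu and ZT 7.48 ± 1.04 in Hu, and the test of a different rhythm between arms gave an unadjusted p of 0.462. The call was lost without ZT 6 (adjusted p = 0.242), without ZT 22 (0.0606) and with ZT as a factor of 6 levels (0.0813). It was kept without each library in turn, at adjusted p-values of 0.00691 to 0.0347.

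Values of markers at these times were as follows. In ARC, the summed markers of paraventricular and supraoptic neurons were also highest at ZT 6, with a mean of 427 CPM (412 to 442), and between 329.7 and 358 CPM on average at the other times. Summed ARC neuron markers averaged 215 CPM at ZT 6 and 153 to 171 CPM at the other times. Of these lists 0 of 5 and 0 of 6 genes tested had a rhythm past the threshold in ARC, and their part in the Prok2 values was not tested. The ZT 6 libraries overlapped those of each other time in both sums, except that the paraventricular and supraoptic sum was higher at ZT 6 than in any ZT 22 library, where it reached 381 CPM.

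In SCN, Prok2 averaged 1.957 CPM at ZT 2, with values of 3.24 and 1.86 CPM in Mu and 0.744 and 1.99 CPM in Hu, and was lowest at ZT 14, at 0.275 and 0.159 CPM in Mu and 0.821 and 0.860 CPM in Hu. The amplitude was 0.57 ± 0.22 (SE) with a peak at ZT 1.87 ± 1.56, and its edgeR adjusted p was 0.282, above the threshold. The test of a different rhythm of Prok2 between SCN and ARC gave an unadjusted p of 0.0197 and an adjusted p of 0.591, with 0 of all 15424 genes past the threshold by edgeR and 1278 (8.29%) at an unadjusted p under 0.05. The peak times of Prok2 in the regions are therefore not shown to differ.

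**Figure D4:**
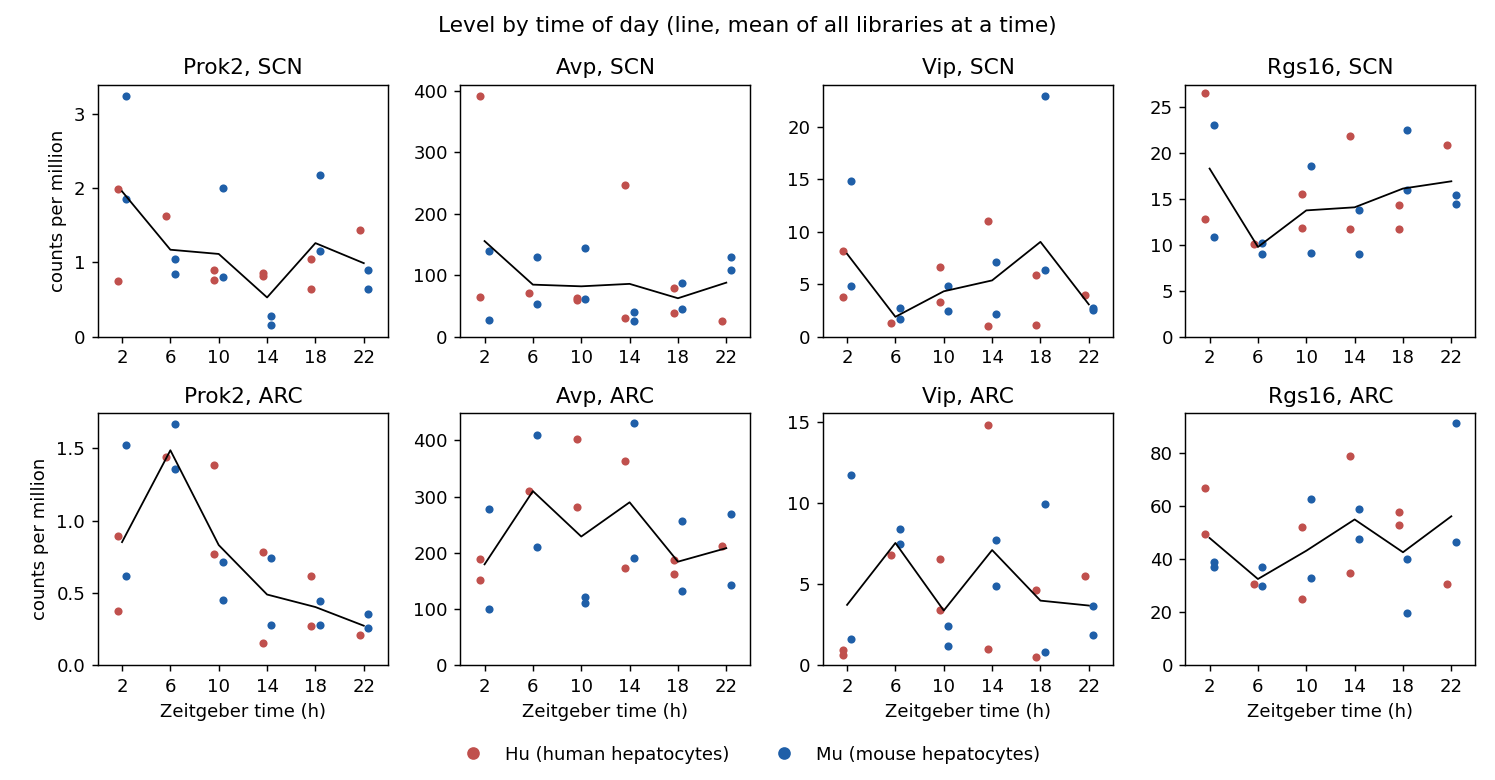
Level in CPM of Prok2, Avp, Vip and Rgs16 by zeitgeber time (h) in SCN (top) and ARC (bottom); each point is 1 library, red for Hu and blue for Mu, and the line joins the means of all libraries at a time. Prok2 in ARC falls from 1.49 CPM at ZT 6 to 0.273 CPM at ZT 22, while the other panels show spreads within a time as wide as those between times in most cases.

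Avp in SCN averaged 155 CPM at ZT 2, where its 4 libraries ran from 26.8 to 391 CPM, and 62.5 to 87.9 CPM at the other times. The amplitude was 0.45 ± 0.30 (SE; edgeR adjusted p = 0.565), with an approximate 95% interval, built from the SE, from -0.14 to 1.04. An amplitude cannot be below 0, so this interval is rough and does not test for a rhythm. In ARC the amplitude was 0.28 ± 0.17 (adjusted p = 0.580), with mean levels from 179 CPM at ZT 2 to 310 CPM at ZT 6. At ZT 2 in SCN the library with 391 CPM was Hu replicate 2, and the others had 26.8, 64.5 and 139.5 CPM.

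Vip in SCN was low in each ZT 6 library (1.31 to 2.70 CPM) and spread from 1.08 to 22.9 CPM at ZT 18. Its lowest library, at 1.06 CPM, was from Hu ZT 14. Its amplitude was 0.51 ± 0.34 (SE; edgeR adjusted p = 0.623) in SCN and 0.34 ± 0.37 (adjusted p = 0.837) in ARC. Rgs16 in SCN was also low in each ZT 6 library, from 8.98 to 10.2 CPM, and averaged 13.7 to 18.3 CPM at the other times. Single libraries of other times were as low, at 9.02 CPM in Mu ZT 14 and 9.04 CPM in Mu ZT 10. The amplitude of Rgs16 was 0.27 ± 0.13 (adjusted p = 0.400) in SCN and 0.20 ± 0.16 (adjusted p = 0.718) in ARC. At ZT 6 the summed markers of paraventricular and supraoptic neurons in SCN libraries were low on average as well, with a mean of 50.4 CPM. Means at the other times ran from 97.7 CPM at ZT 10 to 166 CPM at ZT 22. The ZT 6 libraries had 37.9 to 64.2 CPM, against 146 to 193 CPM at ZT 22. The lowest library was below the ZT 6 range at ZT 2 (27.4 CPM) and ZT 14 (26.1 CPM). At ZT 10 it was within that range (53.1 CPM). The part of these markers in the Vip and Rgs16 values was not tested.

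The 4 genes of SCN with an unadjusted p under 0.05 for rhythm were Gpr176 (0.00461), Lhx1 (0.0223), Prokr2 (0.0237) and Vipr2 (0.0377), whose edgeR adjusted p-values were 0.108, 0.201, 0.206 and 0.240. Their fitted peaks lay between ZT 18.1 and ZT 19.6. Fitted by arm, they ran from ZT 18.6 to ZT 20.2 in Mu and from ZT 16.4 to ZT 20.0 in Hu. Markers of other nuclei had fitted peaks in SCN libraries both near these times (Oxt, ZT 19.7) and far from them (Pomc, ZT 6.4). Gpr176 had mean levels of 18.6 CPM at ZT 6 and 29.2 CPM at ZT 22, an amplitude of 0.27 ± 0.07 (SE). It passed the threshold with DESeq2 (adjusted p = 0.0334) and in edgeR without Mu ZT 10 replicate 2 (adjusted p = 0.0222). Without the 2 SCN libraries with most Vipr2, Mu ZT 18 replicate 2 and Hu ZT 14 replicate 1, a choice made after seeing the data and by the level of Vipr2 itself, the unadjusted edgeR p of Vipr2 was 0.0323 (adjusted 0.305) and that of Lhx1 0.105 (adjusted 0.436).

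The arms were compared next, to ask whether the species of the hepatocytes goes with a different level or rhythm of these genes in the brain. For the level, 0 of 10 genes passed the threshold in SCN and 0 of 10 in ARC by edgeR and also by DESeq2, with 0 of 10 at an unadjusted p under 0.05 in each region by edgeR, where 2.17% of all genes in SCN and 4.24% in ARC were. Among all genes, 0% were higher and 0% lower in Hu in SCN, and 0.00663% higher and 0% lower in ARC, by edgeR. DESeq2 called 0.00666% of all genes in SCN and 0.0928% in ARC. In SCN the median level of Vip was 3.87 CPM in Hu and 3.80 CPM in Mu, that of Avp 63.5 and 74.3 CPM, that of Prok2 0.878 and 0.969 CPM and that of Rgs16 13.5 and 14.1 CPM. The ranges of the arms overlapped for each of the 10 genes. In ARC the medians in Hu and Mu were 4.04 and 4.28 CPM for Vip, 201 and 201 CPM for Avp, 0.694 and 0.535 CPM for Prok2 and 50.6 and 39.4 CPM for Rgs16.

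The size of difference that the intervals still hold depends on the gene. For Gpr176 the log2 difference, Hu minus Mu, was 0.08 ± 0.11 (SE; approximate 95% interval -0.13 to 0.29) in SCN and -0.03 ± 0.06 (-0.14 to 0.08) in ARC. For Vip it was -0.33 ± 0.48 (-1.28 to 0.61) in SCN and -0.37 ± 0.53 (-1.41 to 0.67) in ARC, and for Avp 0.41 ± 0.45 (-0.48 to 1.30) and 0.07 ± 0.25 (-0.41 to 0.55). Prok2 gave -0.13 ± 0.34 (-0.80 to 0.53) in SCN and -0.07 ± 0.29 (-0.65 to 0.51) in ARC. A difference of 1 log2 unit in Gpr176 thus lies outside the interval, and one in Vip does not. No direction is drawn from these values, since each of the 10 differences changed sign under at least 1 alternative in each region.

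A different rhythm between arms was found for 0 of 10 genes in SCN and 0 of 10 in ARC, and for 0% of all genes in both regions. At an unadjusted p under 0.05 there were 0 of the 10 genes in SCN and 1 in ARC, Prokr2 (unadjusted p = 0.0380 by edgeR, far above the threshold once adjusted), where 1.4% of all genes in SCN and 1.78% in ARC were. The peak of Prokr2 was fitted at ZT 21.8 in Mu, with an amplitude of 0.42 ± 0.14 (SE), and at ZT 12.7 in Hu, with an amplitude of 0.20 ± 0.15. DESeq2 found a different rhythm in 0 of the 10 genes as well.

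Correlations between the genes across the 22 libraries of a region were computed on log2 CPM, with 2-sided permutation tests of 100000 draws and p-values adjusted over the 45 pairs of a region. In SCN, 42 of 45 Pearson correlations were positive, with a median of 0.309, and 7 pairs passed the threshold, all positive. In ARC, 26 of 45 were positive, with a median of 0.162, and 9 pairs passed, 6 positive and 3 negative. Spearman's rho put 5 pairs past the threshold in SCN and 8 in ARC, each of them also past it by Pearson's r. The 22 libraries share times and arms, and residuals from arm and the 24 h terms gave 14 pairs in SCN and 12 in ARC. The share of such pairs among all genes was not computed. These counts are therefore not shown to be particular to the genes described here.

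In SCN, 5 of the 7 pairs past the threshold were among Lhx1, Rgs16, Vipr2 and Gpr176. The closest pair was Lhx1 and Gpr176, with r = 0.867 and rho = 0.827 (permutation p = 1e-05, the smallest the draws can give, for both; adjusted p = 0.000450), and r = 0.824 without the 2 libraries farthest from the median of Lhx1. Rgs16 and Gpr176 had r = 0.703 and rho = 0.705 (permutation p = 0.000400 and 0.000390; adjusted p = 0.00450 and 0.00351), and r = 0.802 without the farthest 2, but were not past the threshold without the 4 libraries apart on the first component (r = 0.558; adjusted p = 0.0755). Rgs16 and Vipr2 had r = 0.723 and rho = 0.706 (permutation p = 3.00e-05 and 0.000390; adjusted p = 0.000675 and 0.00351), and r = 0.704 without the farthest 2. Lhx1 and Vipr2 had r = 0.703 and rho = 0.761 (permutation p = 0.00100 and 6.00e-05; adjusted p = 0.00900 and 0.00105), and r = 0.741 without the farthest 2. Vip, which signals through Vipr2, passed the threshold with Prokr2 only, at r = 0.585 and rho = 0.443 (permutation p = 0.00416 and 0.0402; adjusted p = 0.0312 and 0.180), and r = 0.439 without the farthest 2. Without the 2 libraries with most Vipr2 it was not past the threshold (r = 0.312; permutation test, adjusted p = 0.407). Vipr2 and Prokr2 had r = 0.624 and rho = 0.269 (permutation p = 0.00590 and 0.225; adjusted p = 0.0379 and 0.411). Without Mu ZT 18 replicate 2 and Hu ZT 14 replicate 1, r of Vipr2 and Prokr2 was -0.01. These 2 libraries were picked for most Vipr2 and also had most Prokr2 (9.95 and 8.96 CPM), a choice that by itself lowers r.

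In ARC, 4 of the 9 pairs past the threshold were among the peptides Vip, Avp, Prok2 and Nms. Vip and Nms had r = 0.855 and rho = 0.866 (permutation p = 1e-05 for both; adjusted p = 0.000450), and r = 0.791 without the farthest 2. Avp and Nms had r = 0.721 and rho = 0.785 (permutation p = 0.000180 and 6.00e-05; adjusted p = 0.00405 and 0.00135), and r = 0.720 without the farthest 2. Vip and Avp had r = 0.681 and rho = 0.706 (permutation p = 0.000600 and 0.000470; adjusted p = 0.00675 and 0.00504), and r = 0.685 without the farthest 2. Rgs16 went the opposite way to Nms, with r = -0.680 and rho = -0.745 (permutation p = 0.000450 and 0.000120; adjusted p = 0.00675 and 0.00180), and r = -0.657 without the farthest 2. In SCN the correlation of Vip and Avp was r = -0.04 and rho = -0.05 (permutation p = 0.862 and 0.810; adjusted p = 0.896 and 0.828), and 0.200 without the farthest 2. Whether the correlations of the regions differ was not tested.

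**Figure D5:**
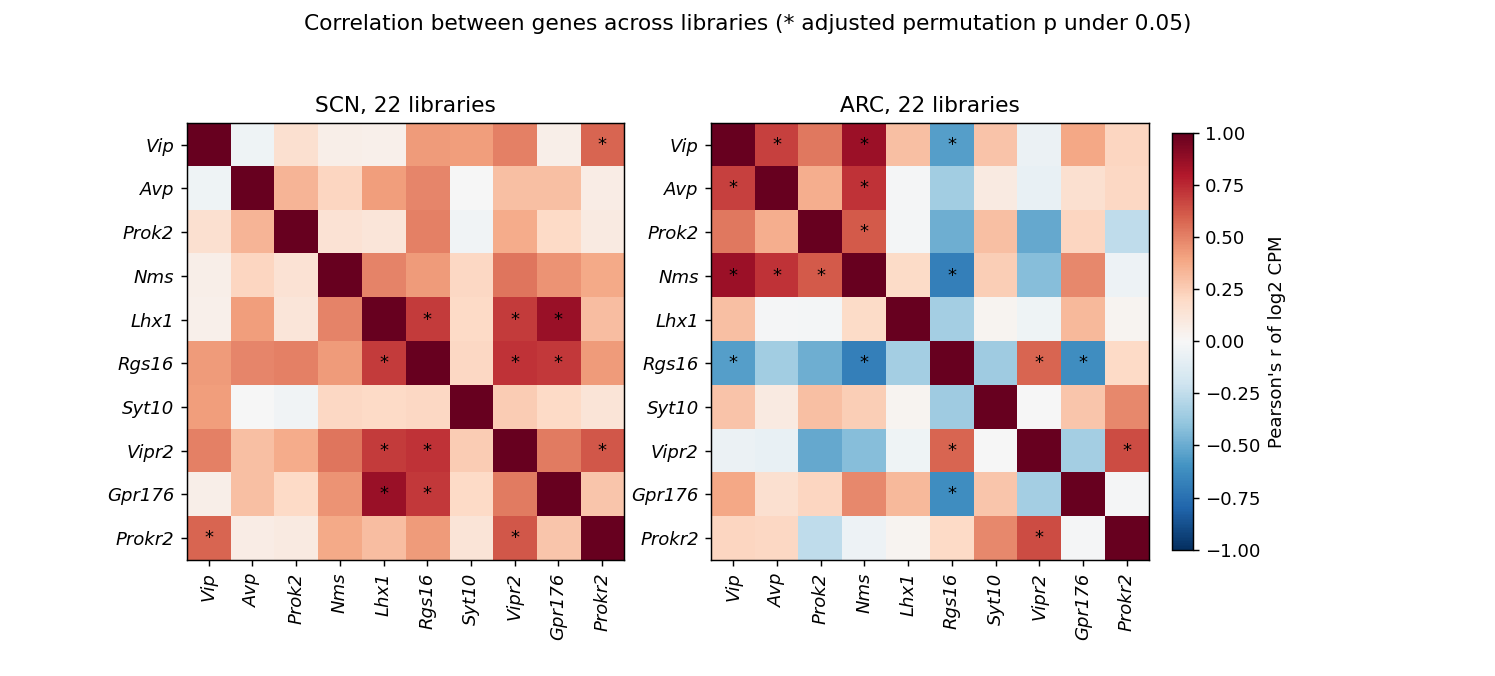
Pearson's r of log2 CPM between the 10 genes across the 22 SCN (left) and 22 ARC (right) libraries; red is positive, blue negative, and an asterisk marks an adjusted permutation p under 0.05. In SCN 5 of 7 marked pairs are among Lhx1, Rgs16, Vipr2 and Gpr176 (r up to 0.867), and in ARC 4 of 9 are among Vip, Avp, Prok2 and Nms (r up to 0.855).

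For each gene, the 3 genes with the highest r over the 22 SCN libraries were looked up among 13984 genes with a mean of at least 1 CPM. Because they were picked as the highest of many, their r is a description with no test. The pick was made in SCN, so a lower r in ARC is no sign of a difference between the regions. Vipr2 was most like Six6 (r = 0.862, rho = 0.746), itself a factor of the SCN, whose r with Vipr2 in ARC was -0.08. Rgs16 was like Nme3 (r = 0.880) and Otp (r = 0.857), the latter a factor of paraventricular neurons. In ARC its r was -0.028 with Nme3 and -0.781 with Otp. Prok2 was like Gpr6 (0.881), Prtn3 (0.874) and Htr6 (0.856), a serotonin receptor gene, with r of 0.222 to 0.354 in ARC. Vip was most like Ammecr1 (0.790) and Pcsk2 (0.772), the latter an enzyme that cuts peptide precursors, with r of -0.00017 and -0.697 in ARC. Gpr176 had the closest matches, Cib2 (0.957), Prmt2 (0.952) and Pcbd1 (0.950), with r of 0.179, 0.758 and 0.449 in ARC. Lhx1 was like Mrgpre (0.934) and Atic (0.926), with r of 0.578 and 0.225 in ARC. Syt10 was most like Zc3h12c (0.902, and 0.547 in ARC). Nms was most like Nutf2 (0.738, and 0.445 in ARC) and Prokr2 like Cyp2u1 (0.762, and -0.049 in ARC). Avp had the loosest, Arl16 at 0.700, and at 0.037 in ARC.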

How the data were processed

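Per the labels, RNeasy RNA was made into strand-marking (NEBNext directional) libraries. The submitters' processing notes name STAR and the builds GRCm38, mm10, hg38, GRCh38 and hg19; their roles, the annotation and the strand setting are not given in the sources used here. The authors deposited raw counts per mouse gene, without normalization, and 44 brain columns were used. In each region the Hu ZT 22 column is numbered 1 while the only sample of that group is titled with number 2, so the column was placed in the group and its number was not used. Symbols came from a gene name table (20329 of 20415 rows matched), and exon lengths and overlaps from GENCODE M21.

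The 10 genes and the gene lists were chosen with earlier results of these data known. CPM were computed from the total of mouse counts of a library. Within a region, edgeR 4.0.16 in R 4.3.3 (filterByExpr by arm, TMM scaling, quasi-likelihood F tests) fitted arm, cosine and sine, with arm by time terms for differences between arms. Both regions were fitted together, with region and arm as 4 groups and a rhythm for each region, for the comparison of regions. Adjustment ran over all genes tested: 15006 in SCN, 15079 in ARC and 15424 in both, and 10 of the 10 genes passed each filter. Correlations used log2 CPM (TMM, prior count 2). The named genes are the 10, the 3 most like each in SCN, and up to 5 per list and comparison by p-value; markers named only as parts of a list or check, and genes overlapping the 10, fall outside this rule. 1 gene that the rule picks is not reported here. Alternatives were DESeq2 1.42.0, RLE scaling, no filter on low counts, ZT as a factor, a block by replicate number, and leaving out each library or time. Between regions the block joined number, arm and time, and all block runs left out the Hu ZT 22 libraries. Tested on simulated data, 83.8% of genes with a common rhythm of log2 amplitude 0.5 were recovered in SCN (15006 genes) and 93% in ARC (15079 genes). The simulated rhythms were given to genes drawn at random from all genes, with counts drawn independently of each other. These shares therefore do not give the power for the 10 genes. In SCN, Vipr2 had a fitted amplitude of 0.79 ± 0.28 (SE) and did not pass the threshold. The liver table was not used.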

Additional observations from a re-analysis of the deposited data

Results flagged for a closer look

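Within the 10 Hu libraries of a region, taken over all times, 3 of 20 sets of values (10 genes in each of 2 regions) had 1 library whose gap to the nearest other exceeded 0.466 of the whole range. Chance alone gives this in about 1 in 20 groups if values are normally distributed, which was not checked. The Mu libraries were not screened in this way, and Vipr2 in SCN reached 14.3 CPM in Mu ZT 18 replicate 2, with the next Mu library at 3.65 CPM. Syt10 in SCN was 5.77 CPM in Hu ZT 2 replicate 1, with the next highest at 2.39 CPM. Vipr2 in SCN was 7.35 CPM in Hu ZT 14 replicate 1, with the next at 3.65 CPM. Vip in ARC was 14.8 CPM in Hu ZT 14 replicate 2, with the next at 6.80 CPM.

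In 27 muscle libraries, which enter no comparison above, 3 of the 10 genes were above 3 counts in each library. Vipr2 had a median of 2.62 CPM (1.26 to 4.81), Rgs16 a median of 0.923 CPM (0.384 to 2.74) and Gpr176 a median of 0.417 CPM (0.277 to 0.905). The median Vipr2 level in muscle was above its median of 1.74 CPM in SCN libraries. The peptides Vip, Avp, Prok2 and Nms had at most 4 counts in any muscle library.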

How the results depend on the processing

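The 7 calls between SCN and ARC were kept under each alternative run, and their log2 differences never changed sign, also without 8 libraries that stand apart, an alternative chosen after seeing the data. Of the 10 genes, the count with a rhythm in ARC went from 1 to 0 without ZT 6, without ZT 22 and with ZT as a factor (the cause was not tested), and was 1 to 1 when each library was left out. In SCN it went from 0 to 1 with DESeq2 (the cause was not tested) and was 0 to 1 when each library was left out. Counts of 0 for differences between arms stayed 0 under each alternative, also when each library was left out (0 to 0), as did those for a different rhythm between regions (0 to 0), and the count of 7 between regions was 7 to 7. Counts of all rhythmic genes moved more: 228 in SCN became 806 with DESeq2 and 31 with ZT as a factor, and ranged from 109 to 445 without 1 library; 683 in ARC became 1113 and 154, and ranged from 429 to 814. Without 1 time point they were 174 (ZT 2), 39 (ZT 6), 47 (ZT 10), 61 (ZT 14), 74 (ZT 18) and 59 (ZT 22) in SCN and 246 (ZT 2), 177 (ZT 6), 287 (ZT 10), 519 (ZT 14), 542 (ZT 18) and 306 (ZT 22) in ARC. Without the 4 SCN libraries apart on the first component they numbered 105, and without the 2 with most Vipr2, 95 (both chosen after seeing the data). Over all genes, DESeq2 called 1 level difference between arms in SCN, where edgeR called 0, and 14 in ARC, where edgeR called 1. The Hu minus Mu log2 differences, none past the threshold, changed sign in 29 of 120 values in SCN and 20 of 110 in ARC outside leaving out single libraries. Correlated pairs in SCN numbered 14 instead of 7 with residuals, 5 to 12 without 1 library (12 without Hu ZT 18 replicate 2 and 11 without Mu ZT 6 replicate 1), and those in ARC 6 to 11; r of Vipr2 and Prokr2 was -0.0077 without the 2 libraries with most Vipr2. Without Mu ZT 18 replicate 2 alone, r was 0.410 for Vipr2 and Prokr2 and 0.440 for Vip and Prokr2 in SCN, neither past the threshold.

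The replicate number was checked for pairing. Deviations of equal-numbered Hu and Mu libraries correlated at a mean of 0.12 in SCN (-0.275 to 0.397 over 4 values) and 0.130 in ARC (-0.159 to 0.350 over 4), and those of SCN and ARC libraries at 0.119 (-0.171 to 0.280 over 10). These few values do not settle whether equal numbers come from the same animal. The main comparison of regions treated the libraries as independent. With a block the counts among the 10 genes were 0 in SCN and 1 in ARC for rhythm, 0 and 0 for arms and 7 for regions, and all rhythmic genes in SCN numbered 148. Within a region the block was the replicate number. Between regions it was arm, time and number together, which takes equal-numbered SCN and ARC libraries as 1 animal. The Hu ZT 22 libraries, whose number was not used, were left out of these runs. Prok2 in ARC had an edgeR adjusted p of 0.0215 with the block.

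Prok2 and Nms rest on 5 to 86 counts per library, which limits the precision of their values.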
